A study of Mus musculus with 4 samples.

Results

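Basal cells of the anterior prostate (AP) that carried the RFP reporter of *Runx1* were compared between castrated and intact adult mice. The 291 cells, 152 from castrated and 139 from intact mice, were 291 of the 688 basal cells that could be assigned to a sorted population in the 2nd of 3 adult droplet runs, out of 11674 adult cells and 19148 cells in the whole series. A cell was kept when it had 750 to 7500 detected genes and under 10% mitochondrial transcripts, was assigned by its MULTI-seq lobe barcode, and was called basal when it held at least 1 *Epcam* transcript, no *Ptprc* transcript and at least 5 *Krt5* plus *Krt14* transcripts per 10000. All mice were males of strain ICR (CD-1) with the P2-*Runx1*:RFP reporter, in which RFP follows the proximal P2 promoter of *Runx1*. They were older than 8 weeks, and the castrated group had been castrated for more than 4 weeks. In run 2, lobes of 3 intact mice and of 5 castrated mice were each pooled, and live EPCAM+ RFP+ cells, both basal (CD49f high) and luminal (CD24 high), were sorted, barcoded and loaded into the same droplet library. There was therefore 1 castrated pool, and no test of the treatment was possible. Intact AP RFP+ basal cells chosen by the same rule in run 1 (223 cells, 4 mice) and run 3 (260 cells, 4 mice) gave the spread between intact libraries. Intervals cover counting error only, and the mouse pool and the treatment cannot be told apart. The paper reports that RFP marked more of the proximal than of the distal basal cells in intact mice, and nearly all basal cells after castration. The RFP+ sort thus took a different share of the basal layer in each treatment. This cannot be told apart from the treatment either, and its part in the folds was not tested.

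Basal cells form the outer layer of the prostate epithelium, rest on a basement membrane through hemidesmosomes, and are defined by the keratins *Krt5* and *Krt14* and the transcription factor *Trp63*. Castration removes testicular androgen. Luminal cells, whose secretory genes depend on androgen, are lost in large numbers, whereas most basal cells persist. Basal cells also receive signals from the surrounding stroma.

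The populations were separated by their barcodes alone, an 8-base tag held in the membrane by lipid-modified oligonucleotides, and are therefore shown here. The tags of both AP RFP+ populations of run 2 differed at 4 positions.
Intact AP RFP+: GGAGAAGA
Castrated AP RFP+: GAAAAGGG
No cell barcode of an AP RFP+ basal cell occurred in more than 1 of the 3 runs. The keratin limit fell in a sparse stretch of the distribution. Of 415 *Epcam*-positive, *Ptprc*-negative castrated AP RFP+ cells, 246 had under 1 keratin transcript per 10000, 14 had 1 to 4, 3 had 4 to 5, 8 had 5 to 7 and 144 had 7 or more. Of 278 intact cells, 119, 15, 5, 3 and 136 fell into the same ranges. The castrated cells nearest to the limit had 4.70 and 5.08 keratin transcripts per 10000, and the intact cells nearest to it had 4.96 and 5.48.

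The defining genes were present in both groups. *Krt14* stood at 2071 CPM (UMIs per 1000000 UMIs of the summed cells) in castrated cells and at 2337, 2291 and 1906 CPM in intact cells of runs 1, 2 and 3, and *Krt5* at 689 CPM against 986, 755 and 861 CPM. Both chose the cells and are given as a description. *Trp63*, which the rule did not use, stood at 93.9 CPM in castrated cells and at 131, 105.3 and 111 CPM in intact cells. Its log2 fold against intact run 2 was -0.16 (95% interval -0.47 to 0.14), and 0.05 with the other scaling of the trimmed mean of M-values (TMM). The castrated and intact pools of run 2 held 1863077 and 1899792 UMIs, with a median of 8764 and 9833 UMIs and 2248 and 2829 genes per cell. The intact pools of runs 1 and 3 held 5372834 and 2976928 UMIs, so the level of a low gene was less certain in castrated cells than in intact run 1. The median mitochondrial share was 2.93% in castrated and 3.07% in intact cells of run 2.

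Castrated AP RFP+ basal cells had higher levels of a small set of genes, some of them secreted factors and regulators, and lower levels of a larger set. The larger set held some defense genes, such as *Defb1* and *Lbp*. Of detoxification and androgen response it held single genes, such as *Gsta3* and *Fkbp5*, and most members of those lists were not called. Among 6244 genes with at least 50 UMIs in both pools of run 2 together, 51 (0.817%) were at least 2-fold higher in castrated cells than in each of the 3 intact libraries, and 143 (2.29%) were at least 2-fold lower than in each. Against intact run 2 alone, 87 genes (1.39%) were at least 2-fold higher and 395 (6.33%) at least 2-fold lower. The median log2 fold of all 6244 genes was -0.19 and 66.9% of them lay below 0, since ribosomal protein genes took a larger share of the castrated UMIs. With TMM, which brought this median to 0.03, 69 genes were higher and 88 lower, so 44.0% of calls were higher in place of 26.3%. All 51 genes called higher were among the 69, and all 88 called lower were among the 143. Intact libraries also differed among themselves. The highest intact library was at least 2-fold above the lowest for 918 of 6244 genes (14.7%), for 26 of the 51 genes called higher and for 25 of the 143 called lower.

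**Figure D1:**
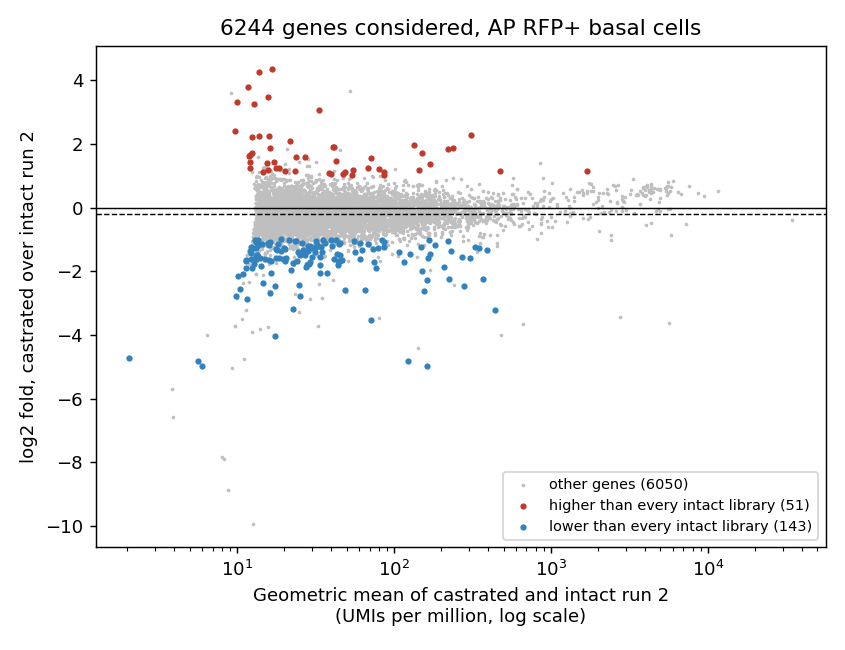
Each point is 1 of 6244 genes, with the geometric mean of its level in castrated and intact cells of run 2 on the x axis (CPM, log scale) and its log2 fold on the y axis. Red points are the 51 genes at least 2-fold higher than in every intact library and blue points the 143 at least 2-fold lower; the dashed line is the median of all genes at -0.19.

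Among transcription factors and growth regulators, *Foxq1*, *Pmepa1*, *Pim1* and *Cdkn1a* were higher in castrated cells and remained called under all 16 other ways of choosing, weighting or scaling the cells. *Foxq1*, a forkhead transcription factor on chromosome 13 (31556134 to 31560976 of GRCm38, + strand), stood at 454 CPM in castrated cells and at 39.5, 124 and 130 CPM in intact runs 1, 2 and 3. The castrated level lay above all intact levels, 3.66-fold over intact run 2 (log2 1.87, interval 1.66 to 2.08). The gene was spread over many cells: after thinning each cell to 3000 UMIs, 63.4% of 145 castrated cells and 21.7% of 138 intact cells had a *Foxq1* UMI, against 5.11% of 235 *Ptprc*-positive cells of the intact AP RFP+ sort, which should lack it. *Pmepa1*, which restrains TGF-beta signaling, stood at 419 CPM against 25.3, 117 and 100 CPM. Intact run 1 was the lowest library for both genes. *Pim1*, a serine/threonine kinase, stood at 272 CPM against 53.0, 83.7 and 48.0 CPM. Unlike *Foxq1*, *Pim1* and *Pmepa1* were common in *Ptprc*-positive cells. After thinning, *Pim1* was found in 46.9% of castrated, 17.4% of intact and 81.7% of *Ptprc*-positive cells. *Pmepa1* was found in 55.9%, 23.2% and 48.1%. *Cdkn1a*, which encodes the cell cycle inhibitor p21, stood at 704 CPM against 170, 317 and 302 CPM, 2.22-fold over intact run 2.

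Among genes called higher, the largest folds belonged to genes with few UMIs in intact cells. *Dio3*, the deiodinase that inactivates thyroid hormone, lies on chromosome 12 (110279068 to 110281097, + strand) and stood at 75.7 CPM in castrated cells and at 1.12, 3.69 and 14.8 CPM in intact cells. This was 20.5-fold over intact run 2 (log2 4.36, interval 3.28 to 5.70), from 141 and 7 UMIs, but 5.12-fold over the highest intact library. *Fst*, which encodes the activin antagonist follistatin, stood at 60.7 CPM against 7.82, 3.16 and 3.02 CPM. *Il11*, a cytokine of the IL-6 family, stood at 52.6 CPM against 1.68, 4.74 and 7.39 CPM. These levels came from a minority of cells. Of 152 castrated cells, 37 held a *Dio3* UMI and 25 a *Fst* UMI, and the 16 cells with the most UMIs of the gene held 78.0% and 92.0% of them. After thinning, *Il11* was found in 13.1% of castrated and 1.45% of intact cells, against 2.55% of *Ptprc*-positive cells.

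Other secreted and surface genes differed less. *Cxcl14*, a chemokine, stood at 266 CPM against 133, 67.9 and 64.8 CPM, and after thinning it was found in 49.7% of castrated and 16.7% of intact cells. The castrated level was close to the 2-fold limit against intact run 1. *Plaur*, the urokinase receptor, stood at 123 CPM against 5.96, 42.1 and 22.8 CPM, and *Ddit4*, an inhibitor of mTORC1 that rises in stress, at 78.9 CPM against 12.5, 21.1 and 35.3 CPM. *Areg*, the EGF receptor ligand amphiregulin, stood at 80.5 CPM against 0.745, 21.6 and 4.03 CPM. Its summed level was higher although the share of cells was not: 13 castrated and 13 intact cells held an *Areg* UMI, and 4.14% and 4.35% did so after thinning.

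**Figure D2:**
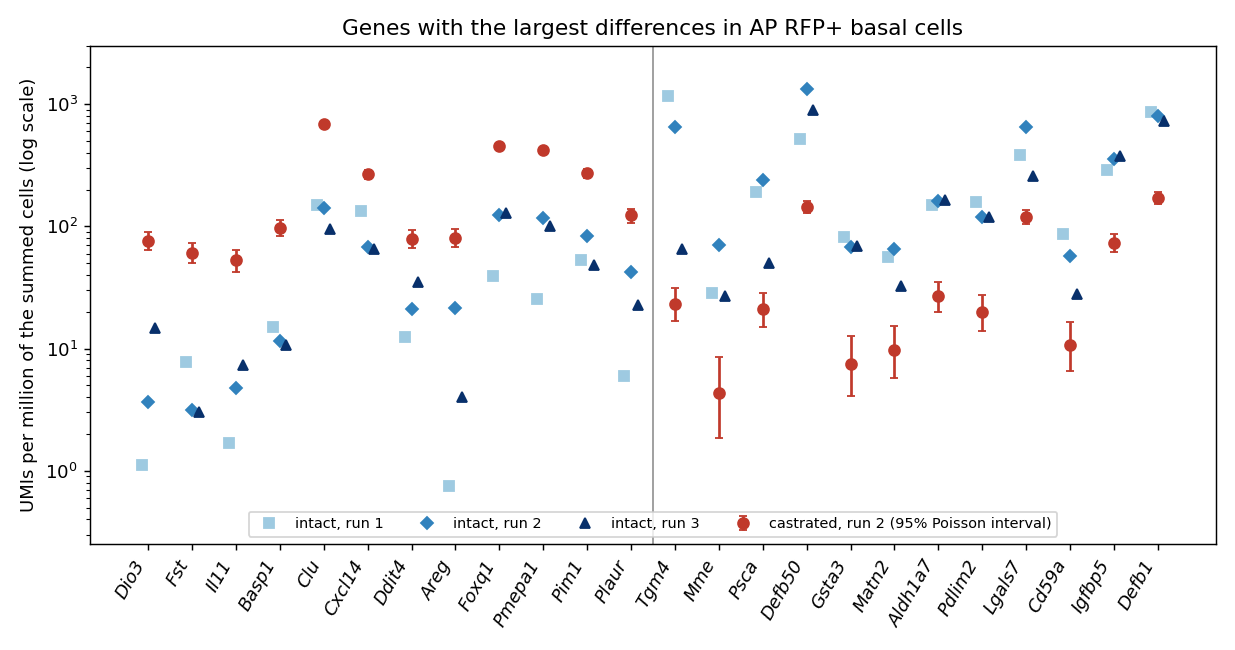
Levels of the 12 genes with the largest (left of the grey line) and the 12 with the smallest log2 folds in AP RFP+ basal cells, in CPM on a log scale; red circles are the castrated pool of run 2 with its 95% Poisson interval and blue symbols the intact pools of runs 1, 2 and 3. The rule that chose the genes places every red circle outside the 3 intact symbols; the intact symbols of *Areg*, *Tgm4* and *Plaur* are far apart.

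A small number of cells with many UMIs carried several of the higher genes. *Clu*, which encodes the chaperone clusterin, stood at 688 CPM in castrated cells and at 149, 141 and 95.7 CPM in intact cells, and *Basp1*, a membrane-bound signaling protein, at 96.6 CPM against 14.9, 11.6 and 10.7 CPM. *Lpl*, the lipoprotein lipase, stood at 31.7 CPM against 1.86, 3.16 and 1.01 CPM. *Basp1* and *Lpl* belong to the list of genes that mark luminal cells of castrated mice, and in AP RFP+ luminal cells of run 2 they stood at 458 and 258 CPM after castration and at 86.9 and 11.1 CPM in intact mice. They are not particular to luminal cells. After thinning, 61.3% of 235 *Ptprc*-positive cells of the intact AP RFP+ sort held a *Basp1* UMI and 15.3% a *Lpl* UMI. Among castrated basal cells these shares were 8.28% and 4.83%. Among castrated basal cells, 17 held a *Basp1* UMI, 17 a *Lpl* UMI and 11 both. The 23 cells with either had a median of 24440 UMIs, against 7064 in the other castrated cells, and in intact run 2 the 15 cells with either had 17060 against 9468. Without the cells of all libraries that held either gene, the log2 fold of *Clu* turned from 2.29 to -0.43, whereas that of *Foxq1* was 1.87 and that of *Dio3* 4.67, and 30 genes were called higher and 198 lower. With a limit of 7500 UMIs per cell, which left 1398 genes to consider, 5 of the 51 higher and 25 of the 143 lower genes were called, and *Basp1*, *Lpl* and *Areg* had log2 folds of -1.39, -0.39 and -0.39. The part of cells captured together in these values was not tested.

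**Figure D3:**
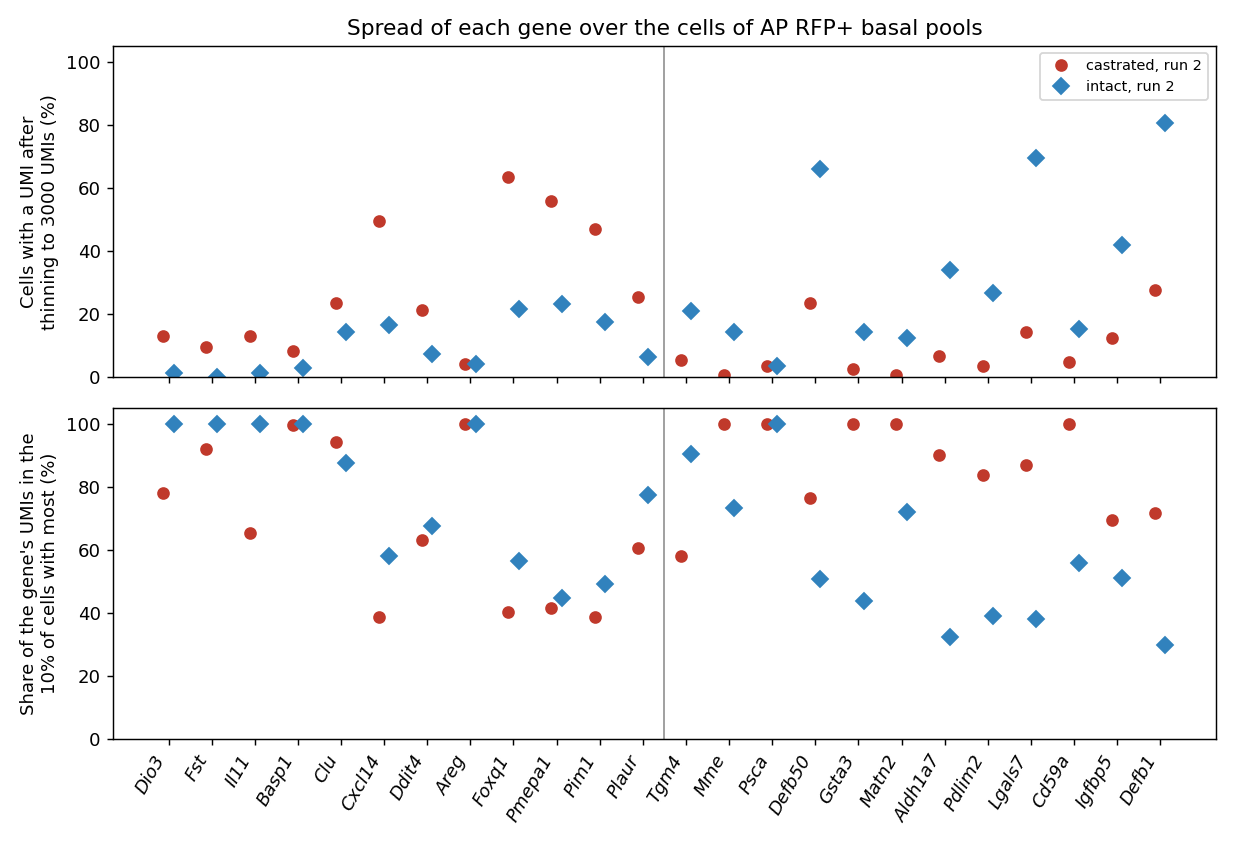
For the same 24 genes, the upper panel gives the share of cells with at least 1 UMI after thinning every cell to 3000 UMIs (145 castrated and 138 intact cells of run 2), and the lower panel the share of a gene's UMIs held by the 10% of cells with the most (16 castrated, 14 intact cells). *Foxq1*, *Pmepa1*, *Pim1* and *Cxcl14* are spread over many castrated cells, whereas *Basp1*, *Clu*, *Areg* and *Psca* come from few cells of either group.

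Over all calls, 17 of the 51 higher genes had at least 75% of their castrated UMIs in the 16 richest cells, and 9 of the 143 lower genes had at least 75% of their intact UMIs in the 14 richest intact cells. A median of 42 castrated cells held a UMI of a gene called higher.

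Keratins other than those of the gate also differed. *Krt18*, a keratin of simple epithelia that is high in luminal cells, stood at 2550 CPM in castrated cells and at 722, 1151 and 1073 CPM in intact cells, 2.22-fold over intact run 2. After thinning, 97.9% of castrated and 92.0% of intact cells had a *Krt18* UMI, so the difference lay in the amount per cell. Its partner *Krt8* stood at 1230 CPM against 464, 644 and 640 CPM, 1.91-fold over intact run 2 and under the 2-fold limit, which it passed under TMM. *Krt7* went the other way, with 18.3 CPM against 72.2, 63.7 and 76.3 CPM. Of 13 keratins and junction genes of luminal type considered, *Krt18* was called higher and *Krt7* lower, with a median log2 fold of 0.20, and under TMM 4 were called higher. Without cells holding *Basp1* or *Lpl*, the log2 folds of *Krt18*, *Krt8* and *Krt19* were 0.91, 0.50 and -0.44.

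Keratins and epidermal genes of stressed or stratified epithelium held 4 called higher of 10 considered, *Krt13*, *Krt16*, *Krt23* and *Anxa8*, and none called lower, with a median log2 fold of 0.66. Over all genes, 0.817% were called higher. *Krt13* stood at 30.1 CPM against 5.77, 6.32 and 10.1 CPM. *Krt16*, a keratin of wounded epidermis, stood at 21.5 CPM against 1.30, 10.0 and 6.05 CPM. Few cells carried these genes: of 152 castrated cells, 23 held a *Krt13*, 13 a *Krt16*, 17 a *Krt23* and 38 an *Anxa8* UMI. They were called in 13, 9, 7 and 11 of the 16 alternatives. In ventral prostate RFP+ basal cells of run 2, where *Krt16* had 4 castrated and 8 intact UMIs, the median log2 fold of the list was 0.03. The most abundant gene of the list, *Sprr1a*, a cornified envelope precursor, was not called, with 1375 CPM against 60.7, 525 and 889 CPM. It was higher in castrated cells than in each intact library, but the intact libraries spanned more than the difference.

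Several genes of defense were lower. *Defb1*, a beta-defensin on chromosome 8 (21776599 to 21795185, + strand), stood at 170 CPM in castrated cells and at 865, 804 and 724 CPM in intact cells. The 3 intact libraries were close together and the castrated level was 4.73-fold under intact run 2 (log2 -2.24, interval -2.42 to -2.06). After thinning, 27.6% of castrated and 80.4% of intact cells held a *Defb1* UMI, against 8.51% of *Ptprc*-positive cells. *Defb50*, another beta-defensin, stood at 144 CPM against 515, 1335 and 897 CPM. It also belongs to the list of luminal secretory genes, and stood at 784 CPM in castrated and 3000 CPM in intact AP RFP+ luminal cells of run 2. After thinning, 23.45% of castrated and 65.94% of intact basal cells held a *Defb50* UMI, against 18.3% of *Ptprc*-positive cells. The part of luminal transcripts in its level was not tested. *Lbp*, which binds bacterial lipopolysaccharide, stood at 176 CPM against 516, 528 and 469 CPM, and *Lcn2*, which sequesters siderophores, at 152 CPM against 632, 317 and 318 CPM. Of 6 innate defense genes considered, *Defb1*, *Lbp* and *Lcn2* were called lower and *Clu* higher, and *Lcn2* lost its call under TMM.

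A retinaldehyde dehydrogenase, a paralog of it and a glutathione transferase were lower. *Aldh1a1*, which makes retinoic acid, stood at 103 CPM in castrated cells and at 402, 484 and 444 CPM in intact cells, and its paralog *Aldh1a7* at 26.8 CPM against 149, 162 and 163 CPM. Reads of the paralogs may be split between them. Of 7 retinoid pathway genes considered, 1 was called lower, and their median log2 fold was -0.16, beside -0.19 over all genes. *Gsta3*, a glutathione S-transferase, stood at 7.51 CPM against 81.9, 68.4 and 68.9 CPM, 9.11-fold under intact run 2 (log2 -3.19, interval -4.10 to -2.39). These 3 genes differed little among intact libraries, and no intact library approached the castrated level. Of 22 glutathione and antioxidant genes considered, 1 was called lower, *Gsta3*, and 19 were below 0, with a median log2 fold of -0.49 beside -0.19 over all genes.

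*Igfbp5*, an IGF-binding protein, stood at 73.5 CPM against 290, 359 and 379 CPM, and was the gene called among 10 of the IGF axis considered. A few genes of the extracellular matrix were also lower. *Sparc*, a matricellular glycoprotein, stood at 76.2 CPM against 578, 304 and 187 CPM, and *Matn2*, a matrilin of the extracellular matrix, at 9.66 CPM against 56.4, 65.8 and 32.2 CPM. The collagen IV chains *Col4a1* and *Col4a2*, which share a promoter region, stood at 46.2 CPM against 93.6, 103 and 92.7 CPM and at 19.9 CPM against 49.3, 58.4 and 44.7 CPM. These were the genes called lower among 14 basement membrane genes considered, 13 of which were below 0, with a median log2 fold of -0.73. Under TMM the median was -0.52, 11 were below 0 and neither chain was called. The hemidesmosome and integrin list held no call of 10, and its median was -0.07, or 0.15 under TMM. *Lgals7*, a galectin of stratified epithelia, stood at 120 CPM against 386, 654 and 257 CPM, and was found in 14.5% of castrated and 69.6% of intact cells after thinning. Beside these values, the summed level of 14 fibroblast and smooth muscle markers, which include *Sparc*, was 2525 CPM in castrated cells and 4334, 3027 and 3523 CPM in intact cells. Most of this sum was *Dcn*, a proteoglycan, at 2339 CPM against 3311, 2481 and 3328 CPM. Of the 8 markers considered, 7 were below 0, with a median log2 fold of -2.16, and 5 were at least 2-fold lower within run 2. Against every intact library *Sparc* was called lower and *Rgs5*, a pericyte marker, higher. *Bgn*, a matrix proteoglycan, stood at 3.22 CPM against 57.7 and 48.4 CPM in runs 1 and 2 and at 0 in run 3. *Col1a1*, a defining fibroblast marker, stood at 1.61 CPM against 16.0 and 25.8 CPM in runs 1 and 2 and was at 0 in run 3, where *Igfbp5* and *Col4a1* stood at 379 and 92.7 CPM. None of the 14 markers was at 0 in castrated cells, and their part in these differences was not tested.

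A few androgen-responsive genes and a homeobox gene of the prostate were lower. *Fkbp5*, a co-chaperone of steroid receptors and a direct androgen target, stood at 18.3 CPM against 56.0, 76.3 and 68.2 CPM, and was found in 1.38% of castrated and 17.4% of intact cells after thinning. *Hoxb13*, a homeobox gene of prostate identity, stood at 76.8 CPM against 241, 212 and 180 CPM. Of 16 androgen response genes considered, *Fkbp5* and *Psca* were called lower and *Pmepa1* higher. Their median log2 fold was -0.74, or -0.52 under TMM, and 10 of the 16 were below 0, a share no larger than the 66.9% of all genes. *Psca*, a surface antigen of proximal luminal cells, stood at 20.9 CPM against 191, 241 and 49.7 CPM, but 12 castrated and 10 intact cells held it.

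Secretory genes of luminal cells must be read beside the other libraries. Their summed level over 28 genes was 3003 CPM in castrated cells and 7604, 35470 and 2582 CPM in intact runs 1, 2 and 3, so the castrated pool lay within the intact range. *Tgm4*, a transglutaminase secreted by the AP (chromosome 9, 123034726 to 123067561, + strand), stood at 23.1 CPM against 1167, 656 and 64.8 CPM and was called lower, but its intact levels spanned more than 10-fold. Of intact run 2 cells, 21.0% held a *Tgm4* UMI after thinning and so did 18.7% of *Ptprc*-positive cells of the same sort, a share close to that of cells that should lack it. *Pbsn*, which encodes probasin, stood at 31.1 CPM against 813, 662 and 54.1 CPM and was not called. Within run 2, 14 of the 17 secretory genes considered were at least 2-fold lower in castrated cells, and 5 were so against every intact library. Without cells in which these genes took over 1% of UMIs, 48 genes were called higher and 137 lower, of which 39 and 114 were among the 51 and 143.

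Housekeeping lists held few calls at the 2-fold limit, but many of their members lay on the same side of 0. All 44 ribosomal protein genes considered were above 0, with a median log2 fold of 0.54, and their summed level was 221400 CPM in castrated cells and 161300, 150400 and 178900 CPM in intact cells. None was 2-fold higher. All 22 endoplasmic reticulum folding and secretion genes were below 0, with a median of -0.76, and *Manf* and *Creld2*, which assist folding in the endoplasmic reticulum, were called lower. *Manf* stood at 104 CPM against 380, 282 and 213 CPM. All 13 cholesterol synthesis genes considered were below 0 against intact run 2, with a median of -0.91 and none called. Intact run 2 was the highest intact pool here: the summed level of the list was 353.7 CPM in castrated cells and 461.2, 660.6 and 480.4 CPM in intact runs 1, 2 and 3. Of 40 nuclear genes of oxidative phosphorylation, 38 were below 0 against intact run 2, with a median of -0.36 and none called. Their summed level was 11920 CPM in castrated cells and 13280, 14420 and 15530 CPM in intact runs 1, 2 and 3. Under TMM, 44 of 44 ribosomal genes were above 0, and 19 of 22 endoplasmic reticulum, 13 of 13 cholesterol and 26 of 40 oxidative phosphorylation genes below it. The medians were then 0.76, -0.55, -0.69 and -0.15, and *Creld2* but not *Manf* was called. Amino acid synthesis genes of the integrated stress response went against *Ddit4*: *Phgdh*, of serine synthesis, stood at 64.4 CPM against 262, 211 and 191 CPM, and *Mthfd2*, of mitochondrial folate metabolism, at 26.8 CPM against 74.3, 75.8 and 58.1 CPM.

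**Figure D4:**
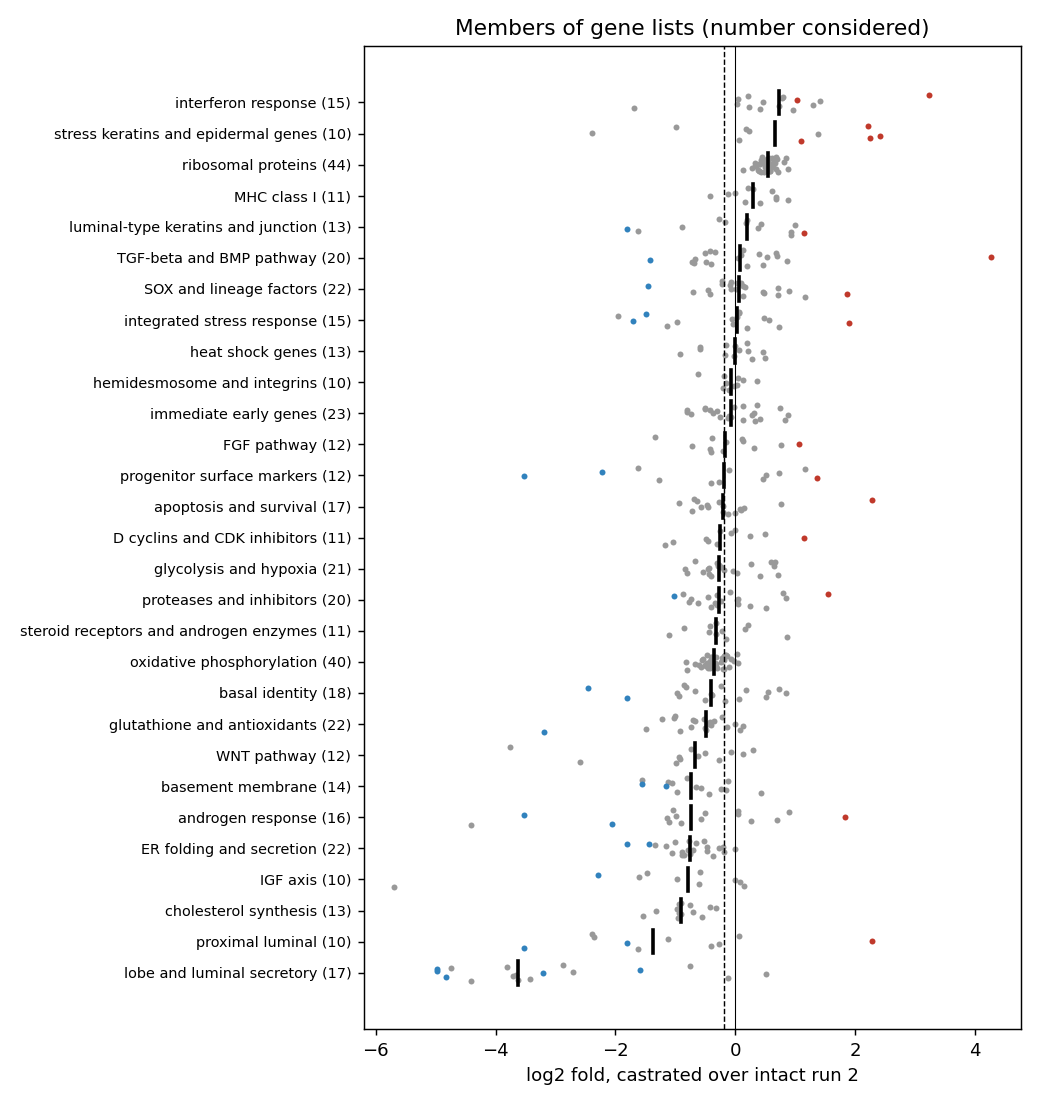
Members of 29 gene lists with at least 10 genes considered, each point a gene with its log2 fold of castrated over intact run 2 on the x axis, red where higher and blue where lower than in every intact library by 2-fold. Black bars are list medians and the dashed line the median of all 6244 genes at -0.19; ribosomal protein genes lie together above 0, and endoplasmic reticulum and cholesterol genes below it.

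Immune and interferon genes were also measured. Of 15 interferon response genes considered, 14 were above 0, with a median log2 fold of 0.72, and *Iigp1* and *Ifitm1* were called higher. *Iigp1*, an interferon-induced GTPase, stood at 39.7 CPM against 12.8, 4.21 and 1.34 CPM, and *Ifitm1*, an interferon-induced membrane protein, at 124 CPM against 50.8, 60.5 and 15.8 CPM. Of 152 castrated cells, 10 held an *Iigp1* UMI, with 33.8% of its UMIs in 1 cell, and 67 held an *Ifitm1* UMI. The median log2 fold of the interferon list was -0.10 in ventral prostate RFP+ basal cells of run 2, beside -0.09 over all genes there. In AP RFP+ luminal cells it was 1.03. The summed level of 15 immune cell markers was 196 CPM in castrated cells and 118, 227 and 17.1 CPM in intact cells, so it was not higher than in intact run 2, and 2 of the 15 were at 0 in castrated cells. Of 23 immediate early genes and 13 heat shock genes considered, none was called, and their medians were -0.07 and 0.00, or 0.15 and 0.22 under TMM. Endothelial markers summed to 61.2 CPM in castrated cells and 248, 14.7 and 11.4 CPM in intact cells.

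Pathway lists held few calls. In the TGF-beta and BMP list, *Fst* was called higher and *Bmp7*, a BMP ligand, lower, at 16.1 CPM against 56.2, 43.2 and 41.0 CPM, among 20 considered. In the WNT list none was called, and 10 of 12 were below 0, beside 66.9% of all genes, with a median log2 fold of -0.68. Under TMM 9 of 12 were below 0, with a median of -0.46. Among FGF genes, *Spry4*, a feedback inhibitor of receptor tyrosine kinases, was called higher of 12, at 56.4 CPM against 16.4, 26.8 and 21.5 CPM. Among EGF family genes *Areg* was called of 6. None of 8 NOTCH and 4 hedgehog genes was called. *Runx1* itself, whose promoter drives the reporter used for the sort, stood at 292 CPM in castrated cells and at 78.5, 159 and 169 CPM in intact cells, 1.83-fold over intact run 2 (log2 0.87, interval 0.66 to 1.08) and so not called. Its castrated level lay above all 3 intact levels, and 82.2% of castrated and 62.6% of intact cells held it, although intact cells were deeper.

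Ventral prostate (VP) RFP+ basal cells of the same mouse pools, 71 castrated and 54 intact, were set beside these values. They are not a replicate, since they came from the same mice and droplet library. Of the 51 genes called higher, 16 had at least 50 UMIs in the VP cells, 15 were above 0 and 9 were at least 2-fold higher, beside 43.2% of 3001 genes above 0 and 2.27% at least 2-fold higher. Of the 143 called lower, 74 were measured, 73 were below 0 and 40 were at least 2-fold lower, beside 56.8% below 0 and 4.33% at least 2-fold lower. *Foxq1* stood at 175 CPM in castrated and 74.9 CPM in intact VP cells, and *Lbp* at 431 and 1306 CPM. *Igfbp5* and *Defb1* differed less in VP, with log2 folds of -0.53 and -0.69 beside -2.29 and -2.24 in AP. In AP RFP+ luminal cells, *Defb1* was higher after castration, at 394 against 102 CPM, and *Aldh1a1* lower, at 14.1 against 83.2 CPM.

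**Figure D5:**
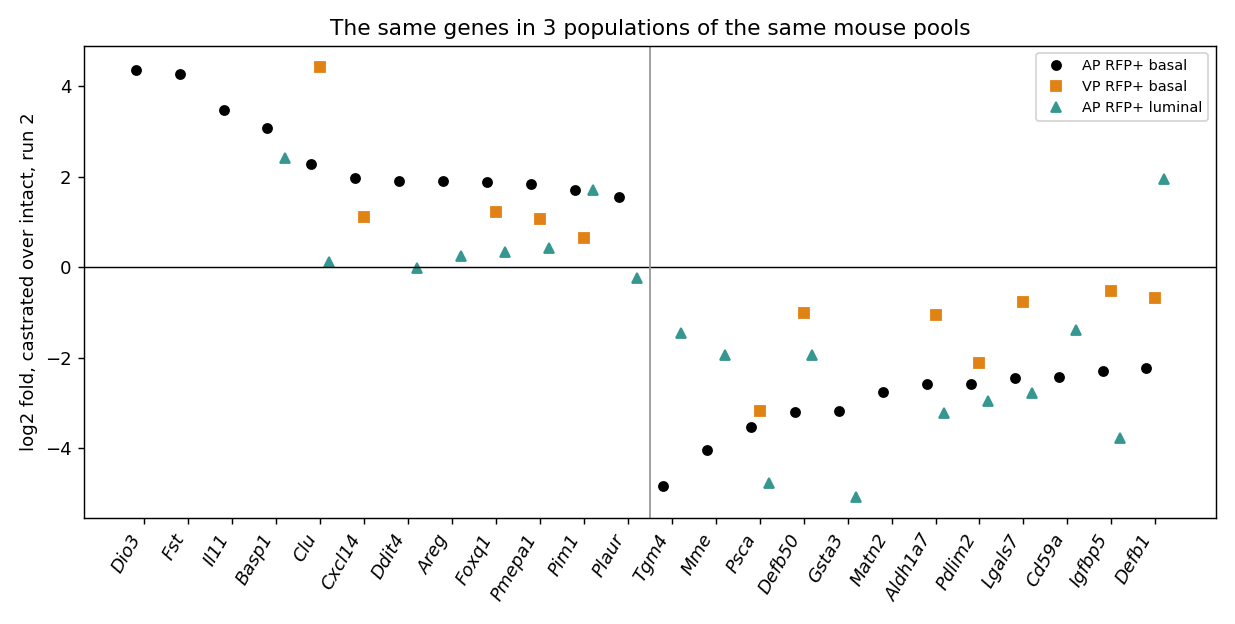
Log2 folds of castrated over intact cells of run 2 for the 24 genes, in AP RFP+ basal cells (black circles), VP RFP+ basal cells (orange squares) and AP RFP+ luminal cells (green triangles), shown where both treatments together held at least 50 UMIs. All measured VP basal values lie on the same side of 0 as in AP, whereas *Defb1* at 1.95, *Plaur* at -0.25 and *Ddit4* at -0.02 in luminal cells lie on the other side.

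The RFP+ basal cells available from other castrated mice were 10 cells of run 1, whose lobes had been pooled. These were set beside intact AP RFP+ cells of run 1 after the values were seen, for genes whose mean level reached 200 CPM, and lobe and treatment cannot be told apart in them. Of the 87 genes higher within run 2, 6 could be measured, 3 were above and 3 below 0, and none was at least 2-fold higher, beside 1.17% of 598 genes. *Pmepa1*, counted above 0, had 0 UMIs in these cells, beside 25.3 CPM in intact run 1. Its log2 fold of 0.21 came from setting 0 to 3 UMIs and does not show a higher level. Of the 395 lower within run 2, 32 could be measured, 20 were below 0, 11 were at least 2-fold lower and 3 at least 2-fold higher, beside 53.7% of all genes below 0 and 4.18% at least 2-fold lower. *Foxq1* had 3 UMIs in these cells (29.2 CPM, beside 39.5 CPM in intact run 1) and *Clu* 1 UMI (9.74 CPM, beside 149 CPM). Below that limit, *Cxcl14* had 29 UMIs (282 CPM, beside 133 CPM) and *Fst* 5 UMIs (48.7 CPM, beside 7.82 CPM), both higher as in run 2. *Ddit4* had 2 UMIs (19.5 CPM, beside 12.5 CPM). *Pim1* had 4 UMIs and was not higher (38.9 CPM, beside 53.0 CPM). *Dio3*, *Il11*, *Basp1*, *Areg* and *Plaur* had 0 UMIs in these cells, whose sum was 102718 UMIs. Genes called lower in run 2 were mixed as well. *Gsn* stood at 273 CPM beside 651 CPM and *Sparc* at 263 CPM beside 578 CPM, whereas *Lbp* (584 and 516 CPM), *Igfbp5* (370 and 290 CPM), *Aldh1a1* (428 and 402 CPM), *Matn2* (107 and 56.4 CPM) and *Col4a2* (117 and 49.3 CPM) were not lower.

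Promoter sequences are shown for a few genes with strong differences, as the 250 bases before the start site in the RefSeq tables of GRCm38.p6, with motifs in capitals. The AP-1 motif TGANTCA, read on both strands, was searched in windows of 300 bases that end 50 bases after the start and lies before the start of *Il11* and *Plaur*, 2 of 8 higher genes with a sequence. *Mme* held it among 7 lower genes, and 8.97% of 27025 genes did. The TATA box letters TATAAA, on either strand, were held by 2 of the 8 higher genes, *Dio3* and *Areg*, by 2 of the 7 lower genes, *Tgm4* and *Aldh1a7*, and by 15.7% of all genes. Letters that match describe the sequence only.
Il11 (chr7:4778142-4778391, - strand): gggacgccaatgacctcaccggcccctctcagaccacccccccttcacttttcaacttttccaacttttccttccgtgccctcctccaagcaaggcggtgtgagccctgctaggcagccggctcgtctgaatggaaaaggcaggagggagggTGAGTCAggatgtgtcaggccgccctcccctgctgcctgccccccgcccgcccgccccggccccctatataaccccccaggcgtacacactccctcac
Plaur (chr7:24462233-24462482, + strand): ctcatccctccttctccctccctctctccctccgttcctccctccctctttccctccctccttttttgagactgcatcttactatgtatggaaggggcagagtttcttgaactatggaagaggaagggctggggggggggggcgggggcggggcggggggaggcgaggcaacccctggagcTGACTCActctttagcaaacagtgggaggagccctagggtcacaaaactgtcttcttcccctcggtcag
Dio3 (chr12:110278980-110279229, + strand): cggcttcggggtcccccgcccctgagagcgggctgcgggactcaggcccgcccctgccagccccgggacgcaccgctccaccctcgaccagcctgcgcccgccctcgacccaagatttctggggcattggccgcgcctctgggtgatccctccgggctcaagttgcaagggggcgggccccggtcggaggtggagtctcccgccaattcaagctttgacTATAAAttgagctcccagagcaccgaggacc
Tgm4 (chr9:123034491-123034740, + strand): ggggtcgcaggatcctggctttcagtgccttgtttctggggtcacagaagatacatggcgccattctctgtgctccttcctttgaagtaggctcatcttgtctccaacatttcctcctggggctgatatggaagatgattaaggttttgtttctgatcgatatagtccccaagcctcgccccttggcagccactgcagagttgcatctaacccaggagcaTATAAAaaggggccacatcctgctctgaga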

How the data were processed

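Droplet-based scRNA-seq (10x Genomics 3′) of sorted adult prostate cells was used from 3 runs. The authors aligned and counted reads with Cell Ranger 3.1.0 on mm10 (GRCm38), and deposited unnormalized counts: UMIs of 31053 genes for each cell, with matching counts of the MULTI-seq barcodes. The RFP transcript is not in the reference. Cell Ranger counts the strand of the gene and reads that map to 1 gene, so close paralogs are less certain.

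Barcode counts were divided by the median of each barcode in the library. A cell was assigned where the top ratio was at least 3 and at least 2 times the second, and the intact DLP RFP+ barcode, with a median of 0 in runs 1 and 2, was skipped. UMIs of the chosen cells were summed per pool and divided by the total. The study fitted MAST to cells; here cells are not replicates and there is 1 castrated pool, so folds, exact Poisson intervals of levels and conditional binomial intervals of ratios (95%) are given, and no p-values. A sum of 0 was set to 3 UMIs, and such a fold is a bound. Genes were called where castrated CPM was at least 2 times, or at most 0.5 times, that of each intact library. Numbers of UMIs are molecules, and intervals cover counting error only.

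Barcodes do not mark doublets within a population. Scrublet, as implemented in scanpy 1.11.5, predicted 10, 4 and 6 doublets in runs 1, 2 and 3, too few to be a working caller, and none were removed; high scores were left out as an alternative. Named genes were the 12 largest and 12 smallest log2 folds among called genes with at least 50 CPM in the higher pool of run 2, outside the gate genes, mitochondrial genes and unnamed models, the gate genes with *Trp63* and *Runx1*, and up to 6 members of each of 46 lists with the largest absolute log2 fold, plus members needed for small counts. Some genes of this rule and of the lists are not reported here. The cells with *Basp1* or *Lpl*, the run 1 castrated pool and *Hbb-bs* were singled out after values were seen. The cells, lists, tests and genes were chosen with earlier results of these data known. Promoters came from RefSeq (GRCm38.p6) and gene positions from GENCODE vM21 (GRCm38). Software was Python 3.11.15, numpy 2.4.6, pandas 2.3.3, scipy 1.17.1, R 4.3.3, edgeR 4.0.16 (TMM factors only) and matplotlib 3.10.9. Code was tested on simulated counts with known folds. Alternatives were TMM, a total without mitochondrial and ribosomal genes, lower filters, equal weight per cell, thinning, the study's barcode thresholds, a stricter gate, a limit of 7500 UMIs (the unit that the study's methods give for their upper limit, where genes were used here), the removal of cells by UMIs, secretory share or Scrublet score, and leaving out each intact pool.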

Additional observations from a re-analysis of the deposited data

Results flagged for a closer look

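*Ly6d*, a surface marker of prostate progenitor cells, was called higher in castrated AP RFP+ basal cells, with 273 CPM against 128, 106 and 42.0 CPM in intact runs 1, 2 and 3 (log2 1.36 against intact run 2). In VP RFP+ basal cells of the same mouse pools it stood at 81.7 CPM in castrated and 216 CPM in intact cells, a log2 fold of -1.40, from 43 and 147 UMIs. The summed levels of the lobes thus went opposite ways, and this difference was not tested, since each lobe had 1 pool per treatment. In AP, 85 of 152 castrated and 30 of 139 intact cells of run 2 held a *Ly6d* UMI, and 1 intact cell held 57.9% of the intact UMIs. Such shares are not given for VP.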

How the results depend on the processing

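No paired analysis was possible because castrated AP RFP+ cells formed 1 pool and no test was made. Counts are given as higher and lower than every intact library, then higher and lower within run 2, beside 51, 143, 87 and 395. They were 69, 88, 155 and 226 under TMM, and 69, 88, 168 and 214 with a total free of mitochondrial and ribosomal genes. A filter of 20 UMIs gave 96, 294, 230 and 807, and no filter beyond 1 UMI gave 485, 612, 2003 and 2444. Equal weight per cell gave 42, 239, 86 and 602, thinning to 3000 UMIs (2128 genes considered) 11, 71, 24 and 163, and a limit of 7500 UMIs per cell (1398 genes considered) 13, 42, 23 and 111, of which 5 and 25 were among the 51 and 143. The stricter gate gave 29, 142, 48 and 306, leaving out the 10% of cells with the most UMIs 25, 120, 55 and 377, and leaving out cells with *Basp1* or *Lpl*, chosen after seeing the data, 30, 198, 61 and 457. The study's barcode thresholds gave 39, 162, 79 and 370, leaving out high Scrublet scores 39, 159, 66 and 421, and leaving out cells rich in secretory UMIs 48, 137, 79 and 373. Leaving out 1 intact pool at a time gave 58 to 97 higher and 167 to 305 lower than every remaining library: 97 higher and 205 lower without run 2, and 305 lower without run 3. The fewer genes considered account for part of the lower counts; other causes were not tested. No gene called higher was called lower under any of the 16 alternatives, or the reverse, and 4 higher and 14 lower genes were called under all of them. With the limit of 7500 UMIs, *Basp1* (-1.39), *Areg* (-0.39), *Lpl* (-0.39), *Psca* (0.027), *Mt3* (1.20) and the median log2 fold of proximal luminal genes (0.00594) changed sign on the log2 scale, and *Clu* (-0.43) did so without cells with *Basp1* or *Lpl*. The cause was not tested.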

Other observations

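A few further genes called lower are given one by one. *Gsn*, which encodes the actin-severing protein gelsolin, stood at 160.0 CPM in castrated AP RFP+ basal cells and at 651, 469 and 814 CPM in intact runs 1, 2 and 3. *Pdlim2*, a PDZ and LIM domain protein, stood at 19.9 CPM against 157, 119 and 119 CPM, and *Cd59a*, which protects cells from complement, at 10.7 CPM against 86.4, 57.4 and 27.9 CPM. *Mme*, the membrane peptidase neprilysin, stood at 4.29 CPM against 28.3, 70.5 and 26.9 CPM, from 8 castrated UMIs. *Serpinb5*, the protease inhibitor maspin, stood at 117 CPM against 264, 238 and 247 CPM, in a list of 20 proteases and inhibitors with 1 called lower and 1 higher. The 3 intact pools were close together for *Serpinb5*, and their lowest value lay 2.03-fold over the castrated pool.

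A hemoglobin gene set the summed level of intact run 2 apart from the other pools. *Hbb-bs*, a beta-globin gene of red blood cells, stood at 1592 CPM there, at 0.186 and 1.01 CPM in intact runs 1 and 3, and at 0 in castrated cells. How many cells of intact run 2 held it is not given here, so this need not be a trait of the whole pool.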
